A study of Mus musculus with 21 samples.

Results

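Malat1, Neat1, Gas5 and 6 transcripts of the small nucleolar RNA host gene family (Snhg1, Snhg3, Snhg5, Snhg6, Snhg8 and Snhg12) were examined in T cells of the mouse spleen. They were chosen by name as a set of non-coding RNAs, and all 9 were listed among the 12994 genes of the normalized count table. Their levels were described over the 4 groups formed by cell population and housing.

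CD4+ and CD8+ T cells had been sorted from spleens of female C57BL6/J mice kept in an enriched environment (EE) or in standard conditions (SE). The EE mice entered large cages with wheels, toys and tunnels at weaning, at 4 weeks of age, and stayed there for 4 weeks, whereas SE mice of the same age lived in smaller cages without objects. The 21 samples came from 12 mice, of which 9 gave both populations, and comprised 6 EE and 5 SE samples of CD4+ T cells beside 6 EE and 4 SE samples of CD8+ T cells. By the labels, mice of the same housing condition shared a cage, so that cage and housing cannot be told apart.

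Each cDNA molecule carried a random tag, a unique molecular identifier, by which its amplified copies were counted once. The deposited values are these molecule counts divided by a size factor per sample, and whole molecules were recovered for 100% of them within a tolerance of 0.001. The CD4+ libraries held 145546 to 183941 molecules with EE and 157556 to 190885 with SE, at medians of 164056.5 and 176086. For CD8+ libraries these were 179696 to 221454 with EE and 179008 to 203322 with SE, at medians of 191906.5 and 194488, so that they were somewhat deeper. At this depth the samples held 682 to 929 molecules of Malat1 and 101 to 191 of Gas5, but only 6 to 24 of Snhg3 and 6 to 20 of Snhg5. Counting error is therefore larger, relative to the level, for the less abundant transcripts. In CD4+ and CD8+ samples the spread between samples was 0.891 and 0.879 times that of counting error for Snhg5. It was 1.47 and 1.04 times for Snhg3, and 1.57 and 1.40 times for Neat1.

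Malat1 is an abundant long non-coding RNA that is kept in the nucleus and gathers in speckles, where splicing factors are stored. Neat1, its neighbour on the chromosome, is the scaffold of paraspeckles, nuclear bodies that hold RNA-binding proteins. Gas5 and the Snhg genes are spliced transcripts whose introns carry small nucleolar RNAs (snoRNAs), the guides for chemical modification of ribosomal RNA. Many of these host transcripts start with a run of pyrimidines, as the mRNAs of ribosomal proteins do, and are degraded through nonsense-mediated decay when they are translated.

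The sorted populations carried their own lineage markers. Cd4, the coreceptor of helper T cells, stood at 58.4 ± 12.0 normalized counts (mean ± SD) over the 11 CD4+ samples and at 0.374 ± 0.484 over the 10 CD8+ samples. Cd8b1, a chain of the CD8 coreceptor, stood at 3.62 ± 2.27 and 205 ± 20.3. The 5 T cell markers Cd3d, Cd3e, Cd3g, Cd247 and Lck summed to 573 ± 52.9 in CD4+ samples and 595 ± 45.8 in CD8+ samples. Of these, Cd247, the zeta chain of the receptor complex, was higher in CD4+ samples (log2 difference 0.49, adjusted p = 0.0101 with limma and Benjamini-Hochberg adjustment), while the median of the 5 was -0.063.

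Red cells had been lysed and the T cells sorted as CD45+ CD11b- CD3+ cells positive for CD4 or CD8. Transcripts listed as markers of other blood cells were still present, unevenly over the libraries, and their cellular source was not tested. The 10 B cell markers summed to 285 ± 111 in CD4+ samples, with Cd74 as the most abundant at 110 ± 49.8, and to 51.8 ± 23.4 in CD8+ samples, where Cd74 was at 5.02 and Ms4a1 and Ebf1 were among those at 0. Most of the sum in CD8+ samples came from Ighm, the heavy chain of IgM, which had a mean of 37.8 there and 40.8 in CD4+ samples. Of the 8 B cell markers tested, 6 were higher in CD4+ samples by limma with Benjamini-Hochberg adjustment, beside 2.33% of all genes. Among CD4+ SE samples this sum was 41.2 in replicate 1, within the range of the CD8+ samples (35.0 to 115), and 495 in replicate 3, the highest of all samples. Erythroid and platelet markers, of which Hba-a1 was the most abundant, summed to at most 26.7 in any CD4+ sample, but reached 581 in CD8+ EE replicate 6 and 1033 in CD8+ SE replicate 3. The other 8 CD8+ samples lay between 0 and 8.65. Klrd1, a receptor of natural killer cells that cytotoxic T cells also express, had 7.31 ± 3.33 in CD4+ and 57.0 ± 11.5 in CD8+ samples. Of the myeloid list, 4 of 8 genes were in the table and 1, Cst3, was tested (24.3 ± 13.2 and 22.9 ± 8.41). In sorted populations such as these, fewer cells of a type and less RNA per cell cannot be told apart.

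The comparison of the populations asked which of these transcripts differ between CD4+ and CD8+ T cells. Malat1 was higher in CD4+ T cells and Gas5 was higher in CD8+ T cells. The other 7 did not pass the test. With limma on log2(normalized count + 1) and Benjamini-Hochberg adjustment over all genes tested, 2 of the 9 members had an adjusted p under 0.05, beside 349 of 7938 genes (4.4%). In the direction of higher levels in CD4+ cells this was 1 member beside 2.33% of all genes, and in the opposite direction 1 member beside 2.07%. The median log2 difference of the 9 was -0.12, against -0.0073 over all genes tested. All 9 had a mean above 10. When only genes above that mean were tested by limma, 2 of the 9 were called, beside 216 of 2727 genes. Because 1 was added to each count, log2 differences come out too small where molecules are few.

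**Figure D1:**
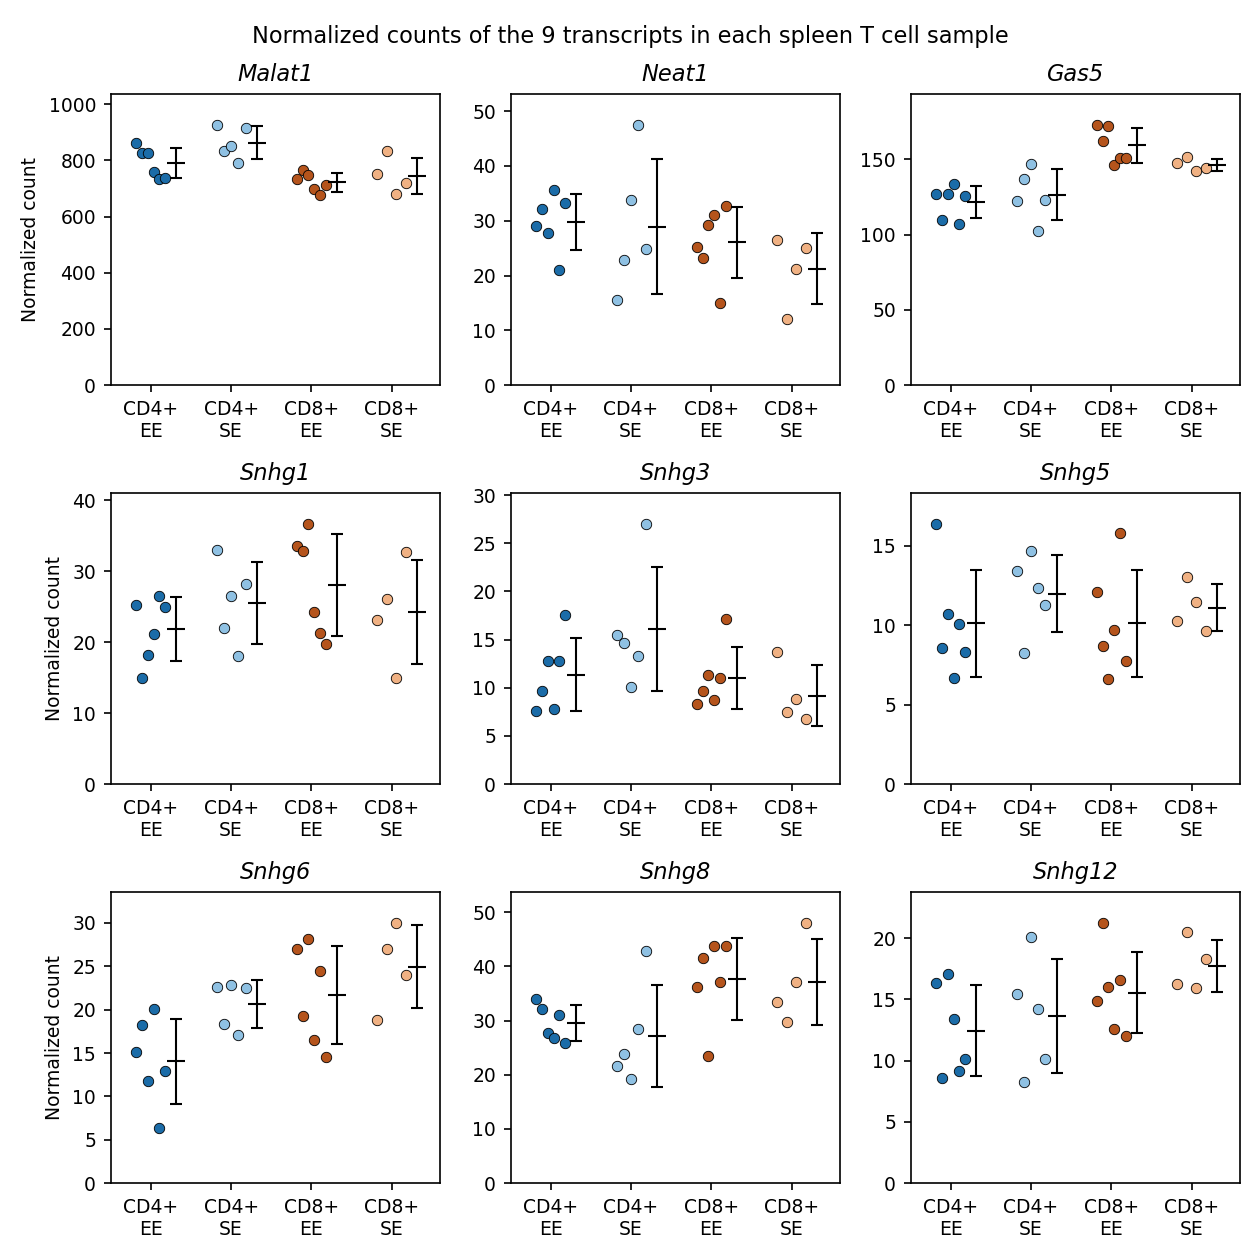
Normalized counts (vertical axes, starting at 0) of the 9 transcripts, with 1 point per sample in the groups CD4+ EE (n = 6), CD4+ SE (n = 5), CD8+ EE (n = 6) and CD8+ SE (n = 4). Horizontal marks are group means and error bars SDs. Malat1 ranges from 735 to 927 in CD4+ and from 676 to 832 in CD8+ samples, and Gas5 from 103 to 147 and from 142 to 173.

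Malat1 (ENSMUSG00000092341) lies on the minus strand of chromosome 19 of GRCm38, at chr19:5795690-5802672. Its normalized count in CD4+ EE samples had a lowest value of 735, a median of 793 and a highest value of 860. In CD4+ SE samples it was 927, 833, 849, 789 and 916. In CD8+ EE samples it ran from 676 through a median of 722 to 765, and in CD8+ SE samples it was 751, 832, 681 and 719. All 11 CD4+ samples lay above the mean of the CD8+ samples, and 5 of them lay above every CD8+ sample. The populations overlapped. The highest CD8+ value, 832 in SE replicate 2, fell among those of the CD4+ samples. Within EE mice the populations overlapped as well, and 3 of 6 CD4+ samples lay above every CD8+ sample.

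The mean of Malat1 was 824 ± 64.4 (SD, n = 11) in CD4+ and 731 ± 46.1 (SD, n = 10) in CD8+ samples, or 0.475% and 0.416% of all molecules. The log2 difference was 0.17 (standard error 0.048), a 1.13-fold higher level in CD4+ cells with a 95% interval of the log2 difference from 0.07 to 0.27 (limma, Benjamini-Hochberg adjusted p = 0.0214). In the 9 mice with both populations, Malat1 was higher in the CD4+ sample in 9, with a ratio of CD4+ to CD8+ from 1.04 to 1.27 (median 1.11). The spread of Malat1 between samples was 2.21 times that of counting error in CD4+ and 1.79 times in CD8+ samples.

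This call was lost in 1 of 21 fits that left out a single library and in some of the other alternatives. Without CD8+ SE replicate 3, which held the most erythroid RNA, the log2 difference was 0.15 and the adjusted p = 0.0940 (limma, range 0.00887 to 0.0940 over the removal of single samples). Without both CD8+ libraries rich in erythroid RNA the difference was 0.15 (adjusted p = 0.120), and without CD4+ SE replicates 1 and 3, which had the least and the most B cell RNA, it was 0.16 (adjusted p = 0.0628). Both were chosen after seeing the data. On recovered molecules edgeR gave 0.16 with a Benjamini-Hochberg adjusted p = 0.0632, whereas DESeq2 gave 0.17 (adjusted p = 0.0124) and kept the call. Within EE mice alone the limma value was 0.13 (adjusted p = 0.331), and within SE mice alone 0.21 (adjusted p = 0.251). The direction was the same in each of these fits, and the adjusted p ranged from 0.000222 to 0.331 over the alternatives other than the removal of single samples. In the CD4+ SE samples, Malat1 was 927, 833, 849, 789 and 916 at B cell marker sums of 41.2, 495, 289, 215 and 358, in the same order. The part of B cell or erythroid RNA in the difference was not tested further.

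Neat1 (ENSMUSG00000092274), at chr19:5824708-5845478 on the minus strand, lies 22035 bases from Malat1. Its mean was 29.4 ± 8.60 over 11 CD4+ samples, which spanned 15.4 to 47.5, and 24.1 ± 6.58 over 10 CD8+ samples, which spanned 12.1 to 32.6. Both the lowest and the highest of the CD4+ values were from SE mice, and the ranges of the populations largely overlapped. The log2 difference was 0.30 (standard error 0.17), with an adjusted p of 0.425 by limma after Benjamini-Hochberg adjustment. Within mice it was higher in the CD4+ sample in 6 of 9. The direction was not stable, since with mouse as a block the log2 difference was -0.0032. Without CD4+ SE replicates 1 and 3 it was 0.47.

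Gas5 (ENSMUSG00000053332), named for its accumulation in growth-arrested cells, lies at chr1:161034422-161038539 on the plus strand. It overlaps Zbtb37, a gene on the opposite strand with a mean normalized count of 3.18, by 428 bases, and reads of this stretch cannot be assigned with certainty. In CD4+ EE samples its normalized count ran from 107 through a median of 126 to 134, and in CD4+ SE samples it was 123, 137, 147, 103 and 123. In CD8+ EE samples it ran from 147 through a median of 157 to 173, and in CD8+ SE samples it was 147, 152, 142 and 144. All 11 CD4+ samples lay below the CD8+ mean, and 10 of them below every CD8+ sample. The exception was CD4+ SE replicate 4 at 147. In EE mice the populations did not overlap, and how many of all genes were separated in this way was not counted. As a different measure, limma over all 21 samples called 2.07% of genes lower in CD4+ cells.

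The mean of Gas5 was 124 ± 13.4 (SD, n = 11) in CD4+ and 154 ± 11.1 (SD, n = 10) in CD8+ samples, or 0.0714% and 0.0877% of all molecules. The log2 difference was -0.30 (standard error 0.080), which is a level in CD4+ cells of 0.810 times that in CD8+ cells with a 95% interval from 0.725 to 0.905 (limma, Benjamini-Hochberg adjusted p = 0.0115). In the 9 mice with both populations, Gas5 was higher in the CD8+ sample in 9, with a ratio of CD4+ to CD8+ from 0.674 to 0.965 (median 0.830). Over the removal of single samples the adjusted p ranged from 0.00619 to 0.0358. Without both CD8+ libraries rich in erythroid RNA the log2 difference was -0.32 (adjusted p = 0.0209), and without CD4+ SE replicates 1 and 3 it was -0.32 (adjusted p = 0.0170). Within SE mice alone, with 5 and 4 samples, limma gave -0.22 with a Benjamini-Hochberg adjusted p = 0.681, in a range of 0.00392 to 0.681 over the alternatives. The spread of Gas5 between samples was 1.19 times that of counting error in CD4+ and 0.939 times in CD8+ samples.

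**Figure D2:**
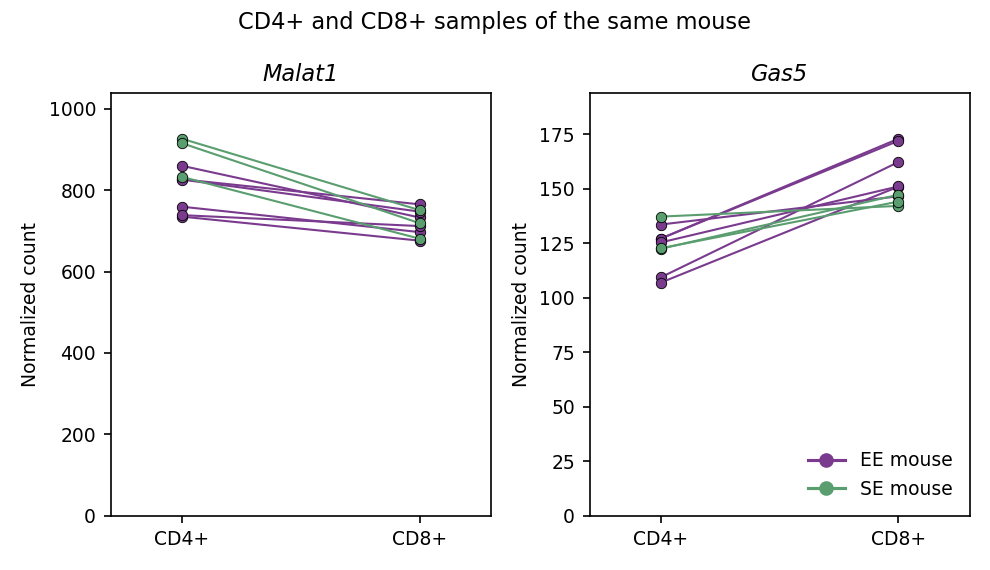
Normalized counts (vertical axes, starting at 0) of Malat1 and Gas5 in the CD4+ and CD8+ samples of the same mouse, with 1 line per mouse (6 EE, 3 SE). Malat1 is higher in the CD4+ sample in 9 of 9 mice and Gas5 in the CD8+ sample in 9 of 9.

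Of the Snhg transcripts, Snhg6 and Snhg8 had the smallest p between the populations, and neither passed the adjusted threshold. Snhg8 (ENSMUSG00000104960, chr3:123507552-123508404, minus strand), which hosts Snora24, averaged 28.5 ± 6.49 over 11 CD4+ and 37.4 ± 7.30 over 10 CD8+ samples. Its values were 25.8 to 34.0 (median 29.4) in CD4+ EE samples and 21.6, 23.8, 19.2, 28.5 and 42.8 in CD4+ SE samples. They were 23.5 to 43.8 (median 39.4) in CD8+ EE samples and 33.4, 29.8, 37.1 and 48.1 in CD8+ SE samples. The groups overlapped, with CD4+ SE replicate 6 high at 42.8 and CD8+ EE replicate 3 low at 23.5. The log2 difference was -0.39 (standard error 0.14, adjusted p = 0.128 by limma after Benjamini-Hochberg adjustment), and the CD8+ sample was the higher in 8 of 9 mice. Without CD4+ SE replicate 6 it was -0.48 and passed the threshold (adjusted p = 0.0335, range 0.0335 to 0.283 over the removal of single samples).

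Snhg6 (ENSMUSG00000098234, chr1:9941959-9944118, minus strand), the host of Snord87, averaged 17.1 ± 5.19 over 11 CD4+ and 23.0 ± 5.33 over 10 CD8+ samples. All 11 CD4+ samples lay below the CD8+ mean, although only 3 lay below every CD8+ sample. The log2 difference was -0.44 (standard error 0.18, adjusted p = 0.187 by limma after Benjamini-Hochberg adjustment), with the CD8+ sample the higher in 7 of 9 mice. It was -0.63 within EE mice alone and -0.25 within SE mice alone. Its 3′ end overlaps Mcmdc2, a gene on the opposite strand that is not in the table, by 127 bases.

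Snhg12 (ENSMUSG00000086290, chr4:132308623-132311024, plus strand), which carries Snora16a, Snora44, Snora61 and Snord99, had a log2 difference of -0.37 (adjusted p = 0.365) and was higher in the CD8+ sample in 6 of 9 mice. Snhg3 (ENSMUSG00000085241, chr4:132348014-132353686, minus strand), the host of Snora73a and Snora73b, lies 36989 bases from Snhg12 and had a log2 difference of 0.37 (adjusted p = 0.445). Its value is uncertain, since it shares 5592 bases with Rcc1, a gene on the same strand with a mean normalized count of 1.70. The difference of Snhg3 was 0.019 within EE mice and 0.72 within SE mice, where SE mouse 6 had 27.0 in its CD4+ and 6.73 in its CD8+ sample, and the interaction had an adjusted p of 0.994. Snhg1 (ENSMUSG00000108414, chr19:8723475-8726443, plus strand), which carries Snord22 among others, and Snhg5 (ENSMUSG00000097195, chr9:88521050-88522929, minus strand), which carries Snord50a and Snord50b, had log2 differences of -0.12 (adjusted p = 0.807) and 0.04 (adjusted p = 0.954), all by limma after Benjamini-Hochberg adjustment. The direction of Snhg1 turned within SE mice alone (0.095). Means of Snhg12 were 13.0 ± 4.00 in CD4+ and 16.4 ± 2.98 in CD8+ samples. Values ran from 6.73 to 27.0 for Snhg3, from 15.0 to 36.7 for Snhg1 and from 6.58 to 16.4 for Snhg5, and the populations overlapped for each. Summed over the 6 Snhg transcripts, normalized counts were 99.4 on average in CD4+ EE, 115 in CD4+ SE, 124 in CD8+ EE and 124 in CD8+ SE samples. The sum was not tested.

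**Figure D3:**
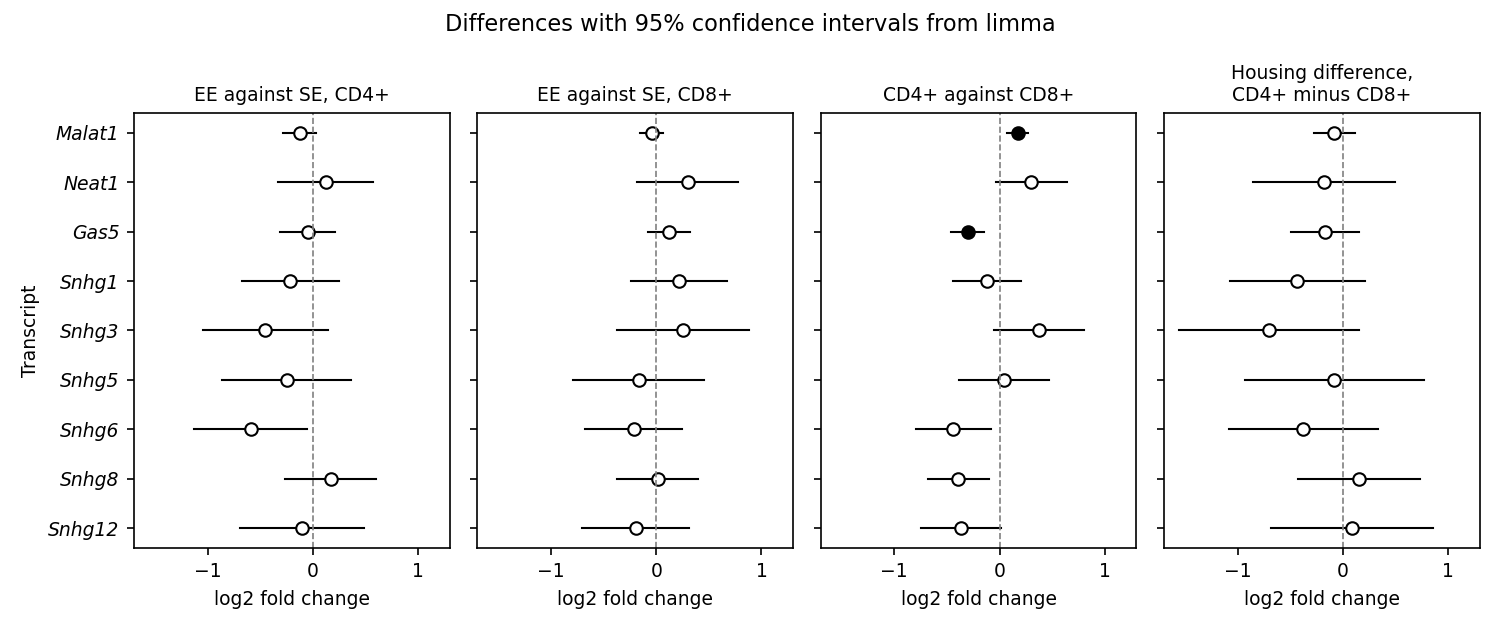
Log2 fold changes (horizontal axes) of the 9 transcripts with 95% confidence intervals from limma, for EE against SE in CD4+ and in CD8+ T cells, CD4+ against CD8+ T cells, and the housing difference in CD4+ minus that in CD8+ T cells. Filled points had an adjusted p under 0.05, which were Malat1 (0.17) and Gas5 (-0.30) between the populations.

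The comparison of EE with SE asked whether housing changed these transcripts. In CD4+ T cells 0 of the 9 passed the threshold, beside 1 of 7939 genes (0.0126%), by limma after Benjamini-Hochberg adjustment. In this comparison 1 of the 9 and 462 of all genes had an unadjusted p under 0.05, and edgeR and DESeq2 also called 0 of the 9. The median log2 difference was -0.13, against 0.0012 over all genes. The member was Snhg6, which had values of 6.40 to 20.0 (median 14.0) in EE samples and 22.7, 18.3, 22.9, 17.1 and 22.5 in SE samples. All 6 EE values lay below the SE mean and 4 of them below every SE value, but the groups overlapped. The log2 difference was -0.59 with a 95% interval from -1.13 to -0.05 (adjusted p = 0.823 by limma after Benjamini-Hochberg adjustment), on 7 to 18 molecules per EE sample.

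Malat1 also lay below the SE mean in 6 of 6 CD4+ EE samples, and 3 were below every SE sample. Its log2 difference of -0.13 had a 95% interval from -0.28 to 0.03 (limma, Benjamini-Hochberg adjusted p = 0.865). The difference for Gas5 was -0.05 (-0.31 to 0.21). For the remaining 6 it lay between -0.45 for Snhg3 and 0.17 for Snhg8. The summed B cell markers were 289 ± 41.5 in EE and 280 ± 169 in SE samples of this population. The median log2 difference of the 9 tested was 0.32, and Cd74 was at 0.74 (unadjusted p = 0.0184, adjusted p = 0.780). Their part in these values was not tested.

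In CD8+ T cells 0 of the 9 passed the threshold between EE and SE, beside 0 of 7840 genes (0%), by limma after Benjamini-Hochberg adjustment. None of the 9 and 413 of all genes had an unadjusted p under 0.05, and edgeR and DESeq2 called 0 genes each. The median log2 difference of the 9 was 0.015, against -0.0078 over all genes. Gas5 was above the SE mean in 6 of 6 EE samples, with 3 above every SE sample. Its log2 difference was 0.12 with a 95% interval from -0.08 to 0.32 (adjusted p = 0.963). For Malat1 the difference was -0.04 (-0.16 to 0.07), and the other 7 ran from -0.22 for Snhg6 to 0.30 for Neat1. Over the removal of single samples Snhg6 ranged from -0.34 to -0.12 and Neat1 from 0.064 to 0.44. Without the pair of libraries rich in erythroid RNA, limma again called 0 of the 9, and the difference of Snhg6 was -0.023.

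A test of whether the housing difference itself differed between CD4+ and CD8+ T cells gave 0 of the 9 and 0 of 7938 genes (0%) by limma after Benjamini-Hochberg adjustment. Of all genes, 393 had an unadjusted p under 0.05, and edgeR and DESeq2 called 0. The median over the 9 was -0.17, against 0.0049 over all genes. The value farthest from 0 was -0.70 for Snhg3 (95% interval -1.56 to 0.15, adjusted p = 0.994). For Malat1, the ratio of CD4+ to CD8+ within a mouse was 1.04 to 1.17 in the 6 EE mice and 1.22 to 1.27 in the 3 SE mice. How many of all genes had ratios separated in this way was not counted. The difference between the housing effects was -0.08 for Malat1 (adjusted p = 0.994), and -0.18 with mouse as a block (unadjusted p = 0.0480, adjusted p = 0.835, in limma). For Gas5 it was -0.17 (95% interval -0.49 to 0.15).

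The order of the group means, from high to low, was CD4+ SE (863 ± 57.7), CD4+ EE (791 ± 53.2), CD8+ SE (746 ± 64.1) and CD8+ EE (722 ± 33.1) for Malat1. Only the step from CD4+ SE to CD4+ EE was larger than the larger of the 2 SDs, and the other neighbours did not differ beyond their spread. For Gas5 the order was CD8+ EE (159 ± 11.5), CD8+ SE (146 ± 4.18), CD4+ SE (126 ± 16.9) and CD4+ EE (122 ± 10.8). Its first and second steps exceeded the larger SD and the last did not. For Snhg6 the order was CD8+ SE (25.0 ± 4.77), CD8+ EE (21.7 ± 5.68), CD4+ SE (20.7 ± 2.76) and CD4+ EE (14.1 ± 4.89), of which only the last step exceeded it. Setting a step beside the SD is a description and not a test. The steps between EE and SE that exceeded the SD were not called by limma, as given above.

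For the other 6 transcripts no neighbouring groups differed beyond their spread. Snhg8 (37.7, 37.1, 29.6 and 27.2) fell in the order CD8+ EE, CD8+ SE, CD4+ EE, CD4+ SE. Snhg12 (17.7, 15.6, 13.6 and 12.5) had the order of Snhg6. Neat1 (29.8, 28.9, 26.0 and 21.2) ran from CD4+ EE through CD4+ SE and CD8+ EE to CD8+ SE. Means of Snhg1 ran from 28.1 in CD8+ EE to 21.8 in CD4+ EE, those of Snhg3 from 16.1 in CD4+ SE to 9.18 in CD8+ SE, and those of Snhg5 from 12.0 in CD4+ SE to 10.1 in CD8+ EE samples.

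The snoRNAs themselves were barely seen. The annotation places 29 snoRNA entries at 27 loci inside the host transcripts, of which Gas5 holds 9 loci, Snhg1 8 and Snhg12 4. Of these, only Snora73b of Snhg3 had a row in the table, with at most 3 molecules and in 6 samples. The table listed 19 rows named as snoRNAs or their Cajal body relatives, of which 4 had a mean above 2 and 10 never exceeded 3 molecules. The highest means were those of Snord104 (9.53), Snora30 (3.64) and Snord13 (2.94).

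Genes that work with these transcripts were described from lists. Of 16 other non-coding snoRNA hosts, 7 were in the table and 5 were tested between the populations. None passed, and the median log2 difference was -0.22. The 2 with the smallest p were Epb41l4aos (-0.30, adjusted p = 0.417) and Snhg20 (-0.22, adjusted p = 0.604), by limma after Benjamini-Hochberg adjustment. Of 38 protein-coding snoRNA hosts tested, 4 were lower in CD4+ T cells and 0 higher, with a median of -0.13, beside 2.07% lower and 2.33% higher of all genes. They included Rpl23a (-0.28, adjusted p = 0.00989), a protein of the large ribosomal subunit, Gnb2l1 (-0.23, adjusted p = 0.0194), the ribosomal scaffold RACK1, and Eef1b2 (-0.22, adjusted p = 0.0393), an elongation factor. Of 14 proteins of snoRNA particles and their assembly tested, 0 passed, with a median of -0.32, and Gar1 (-0.68, adjusted p = 0.161) and fibrillarin, Fbl (-0.37, adjusted p = 0.233), had the smallest p.

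Among the factors of nonsense-mediated decay 0 of 14 passed between the populations (median -0.037), and Upf3b had the smallest p (0.47, adjusted p = 0.423). The same held for 0 of 9 paraspeckle proteins (median 0.0028, Matr3 0.31, adjusted p = 0.554) and 0 of 12 nuclear speckle proteins (median -0.0088, Son 0.13, adjusted p = 0.534). Among other long non-coding RNAs 0 of 5 passed (median 0.14). Mir142hg, the host of a microRNA of blood cells, was at 0.20 (adjusted p = 0.148), and Xist, the RNA of the inactive X chromosome, at 0.14 (adjusted p = 0.618). Of 10 mitochondrial transcripts (median -0.0076), 1 was higher in CD4+ T cells, beside 2.33% of all genes. It was mt-Rnr2, the large ribosomal RNA (0.18, adjusted p = 0.0242), and all adjusted p are from limma with Benjamini-Hochberg adjustment. Mitochondrial transcripts summed to 2.15% of molecules in CD4+ and 1.96% in CD8+ samples, and their part in the Malat1 difference was not tested.

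Between EE and SE no gene of these lists passed in either population. In CD4+ T cells the smallest p in the lists belonged to Snhg20, with a log2 difference of 0.69 (adjusted p = 0.684) and normalized counts of 24.8 ± 5.77 in EE and 15.3 ± 4.78 in SE samples. Eif4a3, a subunit of the exon junction complex, was at 0.45 (adjusted p = 0.829). In CD8+ T cells mt-Rnr1 was at -0.26 (adjusted p = 0.680), Eif4a3 at -0.51 (adjusted p = 0.920) and Snhg17 at -0.95 (adjusted p = 0.923). For Eif4a3, which was 35.6 ± 6.38 and 25.9 ± 5.30 in CD4+ EE and SE and 22.2 ± 4.01 and 31.8 ± 3.55 in CD8+ EE and SE samples, the housing difference in CD4+ minus that in CD8+ T cells was 0.96 (unadjusted p = 0.00139, adjusted p = 0.924 by limma after Benjamini-Hochberg adjustment).

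Once group means were removed, the genes most like Malat1 over the 21 samples, among 2726 genes with a mean above 10, included Rps16-ps2 (Pearson r = 0.806), Rplp2 (0.793), Atp5o (0.786) and Rpn2 (0.785). Those most like Gas5 included Zfp36 (0.793), Gvin1 (0.671), Srp19 (0.665) and Tomm20 (0.650). These values share the size factor of each sample and describe these libraries only.

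Between the members, 72 relations were computed within CD4+ and within CD8+ samples after removal of the housing means. Of these, 6 had an unadjusted p under 0.05 for Pearson's r and 0 after Benjamini-Hochberg adjustment (smallest adjusted p = 0.529, two-sided permutation test with 100000 resamples). In CD8+ samples (n = 10) Malat1 and Gas5 had r = 0.646 (permutation p = 0.0441, adjusted p = 0.529) and Spearman's rho = 0.782 (permutation p = 0.0114, adjusted p = 0.465), with r at 0.730 once the 2 outermost samples were left out. Gas5 and Snhg1 in CD8+ samples (n = 10) had r = 0.697 (permutation p = 0.0282, adjusted p = 0.529) and rho = 0.673 (permutation p = 0.0388, adjusted p = 0.565), with r = 0.582 without these samples. For Malat1 and Gas5 in CD4+ samples (n = 11), r was 0.198 (permutation p = 0.556) and rho 0.182 (permutation p = 0.597).

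The other 4 of the 6 relations were 3 negative and 1 positive, each with an adjusted p of 0.529 for r. Neat1 and Snhg5 in CD8+ samples (n = 10) had the smallest p, with r = -0.749 (permutation p = 0.0125) and rho = -0.612 (permutation p = 0.0663), and r was -0.394 with the 2 outermost samples left out. Gas5 and Snhg8 in CD8+ samples (n = 10) had r = -0.659 (permutation p = 0.0350) and rho = -0.624 (permutation p = 0.0601), with -0.532 after that removal. In CD4+ samples (n = 11) Neat1 and Snhg1 had r = -0.615 (permutation p = 0.0421) and rho = -0.527 (permutation p = 0.100), with -0.207 after it. Snhg5 and Snhg12 in CD4+ samples (n = 11) had r = 0.651 (permutation p = 0.0270) and rho = 0.700 (permutation p = 0.0194), with 0.854 after it. No relation passed the adjusted threshold.

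The first bases of the transcripts are shown because this class is known for starting with a pyrimidine run. RefSeq (GRCm38.p6) gave 8 starts for 7 of the 9 members, and had no entry used here for Neat1 and Snhg6. Each sequence holds 10 bases before and 20 from the annotated start, and capitals mark the longest run of C and T that opens with C within 5 bases of it, on the transcribed strand only.
Gas5, chr1:161035156-161035185, plus strand: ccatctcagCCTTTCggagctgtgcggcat
Gas5 (other start), chr1:161034591-161034620, plus strand: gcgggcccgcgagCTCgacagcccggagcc
Snhg8, chr3:123508317-123508346, minus strand: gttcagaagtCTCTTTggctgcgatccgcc
Snhg12, chr4:132308668-132308697, plus strand: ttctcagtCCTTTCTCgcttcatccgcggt
Snhg3, chr4:132353667-132353696, minus strand: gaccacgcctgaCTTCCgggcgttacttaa
Snhg1, chr19:8723477-8723506, plus strand: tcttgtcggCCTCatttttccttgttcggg
Snhg5, chr9:88522878-88522907, minus strand: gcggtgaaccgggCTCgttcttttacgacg
Malat1, chr19:5802653-5802682, minus strand: ggctctgcgtCaggcattcaggcagcgaga
Counted from the annotated start onward, a run of at least 5 bases with C at the start was found for 2 of 7 starts of the snoRNA hosts (28.6%). For all genes this was 823 of 32851 starts (2.51%). The 2 were that of Snhg8 and 1 of the 2 starts of Gas5, whose marked run opens 1 base earlier. Within 5 bases of the start such a run was found for 4 of 7 (57.1%), with Snhg3 and Snhg12 added, against 6027 of all (18.3%). Of the protein-coding snoRNA hosts with an entry, 2 of 28 (7.14%) had it at the start and 7 of 28 (25%) within 5 bases. The other start of Gas5 and that of Snhg5 had runs of 3 bases within 5 bases of the start, Snhg1 had 4 and Malat1 had 1. A run of these letters is a description of the annotated start, and its use in these cells was not tested.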

How the data were processed

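RNA of sorted spleen T cells was sequenced on an Ion Proton instrument. From the study's methods, the authors trimmed reads with cutadapt, aligned them with STAR (2.4.0a in the submitters' processing notes) to mm10, and obtained molecule counts from the Drop-seq tools and the Ensembl model of GRCm38. Whether strand was used in counting is not given in the sources used here, so that overlapping genes are uncertain. The deposited signal is the molecule count divided by a DESeq2 size factor. Groups, animals and columns were assigned from the labels.

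The 9 members and the lists were chosen with earlier results of these data known. Values were compared with limma 3.58.1 in R 4.3.3 (trend) on log2(value + 1), where the mean exceeded 2, with a threshold of 0.05 after Benjamini-Hochberg adjustment. All 9 members passed this filter in each comparison. Housing was compared within each population, and populations and the interaction over all 21 samples. Alternatives used edgeR 4.0.16 and DESeq2 1.42.0 on the recovered molecules, other filters, pseudocounts and scalings, blocks and left-out samples. Leaving out the 2 CD8+ libraries rich in erythroid RNA, or CD4+ SE replicates 1 and 3, was chosen after seeing the data. CD4+ and CD8+ samples of the same housing and number come from the same mouse by the labels, and their deviations from the group means correlated at a mean r of 0.0145 in 6 EE and 0.0129 in 3 SE pairs.

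Named genes were all members, for each list up to 3 genes per direction with the smallest p among those past the threshold (otherwise the 2 with the smallest p, of which some are given here), the most abundant gene of each marker list, the 3 snoRNA rows with the highest mean, and, of the 5 genes most like Malat1 and the 5 most like Gas5, those given here. Genes that overlap members (Rcc1, Zbtb37 and Mcmdc2), markers at 0, Ighm and Cd247 were named after the data were seen. Intervals of counts cover counting error only. Positions come from GENCODE release M21. Fits were tested on simulated data. Descriptions used Python 3.11.15 with SciPy 1.17.1, NumPy 2.4.6, Matplotlib 3.10.9 and pandas 2.3.3.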

Additional observations from a re-analysis of the deposited data

Results flagged for a closer look

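Of 36 sets of values, those of the 9 transcripts in each of the 4 groups, 2 held a sample far from the others of its group by Dixon's criterion at the 95% level, where chance gives about 1.8. Snhg3 was 17.2 in CD8+ EE replicate 6 (20 molecules), above the 8.37 to 11.3 of the other 5 samples. That library also held an erythroid marker sum of 581 and a B cell marker sum of 115, and their part in this value was not tested. Snhg8 was 23.5 in CD8+ EE replicate 3 (25 molecules), below the 36.3 to 43.8 of the other samples.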

How the results depend on the processing

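Of 342 values of single transcripts under alternatives other than leaving out single samples, 329 kept their direction and side of the threshold, 6 lost the call and 7 changed sign. Leaving out each sample in turn gave 567 further values, of which 548 did so. The calls lost were those of Malat1 and Gas5 given above, and Gas5 lost it only within SE mice. The number of members called between the populations moved from 2 to 1 with edgeR, with EE mice only, without the 2 CD8+ libraries rich in erythroid RNA and without CD4+ SE replicates 1 and 3, the last 2 chosen after seeing the data. It was 0 with SE mice only, and lay between 1 and 3 when single samples were left out. The 1 came without CD8+ SE replicate 3 (Malat1 at 0.15, adjusted p = 0.0940 in limma) and the 3 without CD4+ SE replicate 6 (Snhg8 at -0.48, adjusted p = 0.0335). All genes called between the populations moved from 349 to 216 with a mean above 10, 227 with EE mice only and 105 with SE mice only, where fewer genes or samples entered, to 365 with edgeR and 421 without a filter, and to 300 to 362 with single samples left out.

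Between EE and SE in CD4+ samples, 1 gene was called, and 0 with a pseudocount of 0.5, a mean above 10 or all 21 samples in a joint fit, 3 without a filter, 2 with edgeR, and 0 to 3 with single samples left out. In CD8+ samples it was 0, and 3 without a filter and 0 to 3 with single samples left out. The cause was not tested. Animal numbers of EE and SE mice mark different mice, whose deviations correlated at a mean r of 0.00833 in CD4+ and 0.00522 in CD8+ pairs. With this number as a replicate block, 0 genes were called in CD4+ and 2 in CD8+ samples. With mouse as the block, 311 genes and 2 members were called between the populations (Malat1 0.22, adjusted p = 0.000552, and Gas5 -0.29, adjusted p = 0.0420, in limma), and it changed no call of a member.

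Signs changed only for differences that had not been called, and the cause was not tested. With a block these were Snhg8 between EE and SE in CD8+ samples (-0.046), Neat1 between the populations (-0.0032) and Neat1 in the interaction (0.43). Snhg1 between the populations was 0.095 in SE mice only. Without the 2 CD8+ libraries, Snhg8 in CD8+ samples was -0.025. Without the 2 CD4+ libraries, Neat1 in CD4+ samples was -0.21 and Snhg12 in the interaction -0.038. With single samples left out, differences between EE and SE in CD4+ samples ranged from -0.071 to 0.32 for Neat1, -0.12 to 0.0069 for Gas5 and -0.26 to 0.040 for Snhg12. In CD8+ samples they ranged from -0.086 to 0.0095 for Malat1 and -0.080 to 0.14 for Snhg8. Between the populations Snhg5 ranged from -0.024 to 0.11, and in the interaction Neat1 ranged from -0.37 to 0.057, Snhg5 from -0.22 to 0.048 and Snhg12 from -0.064 to 0.23. Transcripts with under 20 molecules in a sample, such as Snhg3, Snhg5 and Snhg12, carry the widest intervals.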
